A study of Rattus norvegicus with 6 samples.

Results

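The hypoxia-inducible factors (HIF) and a set of genes that they are known to control were described in rats made diabetic with streptozotocin, whose kidneys were compared with and without Shenqi Jiangtang Granule (SJG). The genes were picked by name for their known roles, with no threshold on a measured value, but with earlier results of these data known. The set holds the factor genes Hif1a and Epas1, the oxygen-sensor gene Egln3 and the target genes Hk2, Ldha, Pgk1, Pdk1, Adm, Bnip3 and Car9. Of these 10 genes, 9 were measured by a row of their own, among 18166 genes in all. Bnip3, which encodes a mitochondrial receptor for mitophagy, has no value here because its row on the array is shared with a pseudogene. Each of the 9 genes had 1 row, and no filter on low signals was applied.

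The series compared 3 arrays of SJG-treated rats with 3 arrays of diabetic rats, each carrying kidney RNA of Sprague Dawley rats labelled as 17 weeks old. Both groups share the same diabetes, induced by streptozotocin, a toxin of the insulin-producing beta cells, so nondiabetic kidneys do not enter the comparison. The paper also speaks of a high-fat diet in the model, which its methods do not describe. SJG is a granule of several medicinal herbs. The methods describe male rats, RNA of the kidney cortex, saline for the diabetic group and oral SJG for several weeks at a lower or a higher dose, and the text speaks of the higher dose for the arrays, while the labels name only kidney and give no dose. More rats were treated than arrays were run, and the sources do not say which rats were used. The labels number the samples but name no animals, so each p-value reflects the spread of these samples only, part of which may be technical. A bracketed code in the titles also differs between the groups, and its meaning and the treatment cannot be told apart.

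Cells sense oxygen through the stability of HIF proteins. When oxygen is plentiful, the prolyl hydroxylases encoded by Egln1, Egln2 and Egln3 mark the alpha subunits HIF-1alpha (Hif1a) and HIF-2alpha (Epas1), which the von Hippel-Lindau complex then sends for degradation. When oxygen is scarce the alpha subunits escape, pair with the beta subunit Arnt and switch on genes for glucose uptake, glycolysis, vessel growth, red cell formation and pH control. In the kidney, Epas1 is known from endothelial and interstitial cells and Hif1a from tubule cells. The arrays measure RNA only, so the amount of HIF protein was not measured.

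Signals are given on the log2 scale, where 1 unit is a doubling, and a difference is SJG minus diabetic, with its standard error (SE) from limma. Array medians over all rows lay between 4.68 and 4.88 in the SJG group and between 4.70 and 4.85 in the diabetic group. The 7 proximal tubule markers had mean signals of 10.5 to 11.1 on the SJG arrays and of 10.6 to 10.9 on the diabetic arrays, where the median over genes was at most 5.59 on an SJG array and 5.66 on a diabetic array. Groups were compared with limma, and a gene was called where its unadjusted p was under 0.05 and it differed by more than 1.5-fold, the thresholds of the study. At these thresholds 565 genes (3.11%) were called, 180 higher (0.991%) and 385 lower (2.12%), and 0 genes had an adjusted p under 0.05. The paper does not say which test gave its array p-values. It reports fewer genes at these cut-offs, in similar numbers in each direction, so the counts here are not those of the study. Diabetic replicate 3 was the diabetic array closest to the SJG arrays in its injury markers. The mean of 6 tubule injury markers was 7.96 on that array, beside 9.52 and 9.35 on diabetic replicates 1 and 2, and ranged from 6.84 to 7.81 on the SJG arrays. Without diabetic replicate 3, 1449 genes were called.

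None of the 9 genes was called (limma, 0 higher and 0 lower), and none had an unadjusted p under 0.05, a mark that 6.24% of all genes passed. The unmoderated test, which takes each gene on its own, also called 0. The SJG and diabetic arrays overlapped in all 9 genes, while 10.5% of all genes had groups that did not overlap, among them 5.2% with all SJG arrays above all diabetic arrays. With so small a share called among all genes, a count of 0 in 9 does not set these genes apart from the rest. A negative difference was found for 2 of the 9 genes and for 49.7% of all genes. The log2 fold changes ran from -0.27 for Hif1a to 0.20 for Adm, with a median of 0.06 over the 9 genes and of 0.0018 over all genes. Adjusted p-values lay between 0.824 and 0.994. As the arrays hold a mixture of kidney cells, fewer cells of a type and less RNA per cell cannot be told apart.

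The factor genes had the negative differences among the 9, and neither passed. Hif1a had log2 signals of 9.06, 8.62 and 9.02 in SJG replicates 1, 2 and 3, and of 9.27, 9.59 and 8.64 in diabetic replicates 1, 2 and 3. Diabetic replicates 1 and 2 lay above all SJG arrays, and diabetic replicate 3 lay near the lowest SJG array. The means were 8.90 ± 0.24 with SJG and 9.17 ± 0.48 in diabetic kidneys (SD, n = 3 each), a log2 fold change of -0.27 (SE 0.25, limma adjusted p = 0.843) and a 95% interval from -0.81 to 0.27. The interval thus reaches from a decrease of 1.75-fold to an increase of 1.21-fold. Without diabetic replicate 3, the array closest to the SJG group in the injury markers as well, the log2 fold change was -0.53 or 1.45-fold, at an unadjusted p under 0.05 but below the fold threshold (limma adjusted p = 0.336, in a range of 0.336 to 0.9995 over the alternatives). Without diabetic replicate 2, the array with the highest Hif1a signal, it was -0.06. That array also had the highest mean of the immediate early genes, which respond to tissue handling among other stimuli, at 9.13. The part of tubule injury and of immediate early genes in the Hif1a signal was not tested.

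Epas1 varied less within the groups. Signals of Epas1 were 9.01, 8.83 and 8.70 in SJG replicates 1, 2 and 3, and 9.09, 9.13 and 8.97 in diabetic replicates 1, 2 and 3. Only SJG replicate 1 lay within the diabetic range, and SJG replicates 2 and 3 lay below it. The means of 8.85 ± 0.15 with SJG and 9.06 ± 0.08 in diabetic kidneys (SD, n = 3 each) gave a log2 fold change of -0.22 (SE 0.17, limma adjusted p = 0.824). The 95% interval, from -0.59 to 0.16, just reaches a decrease of 1.5-fold. Epas1 is known from endothelial cells, and the 5 endothelial markers measured had mean signals of 7.28 to 7.31 on the SJG arrays and of 7.43 to 7.70 on the diabetic arrays, with 0 of 5 called. Their part in the Epas1 signal was not tested.

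**Figure D1:**
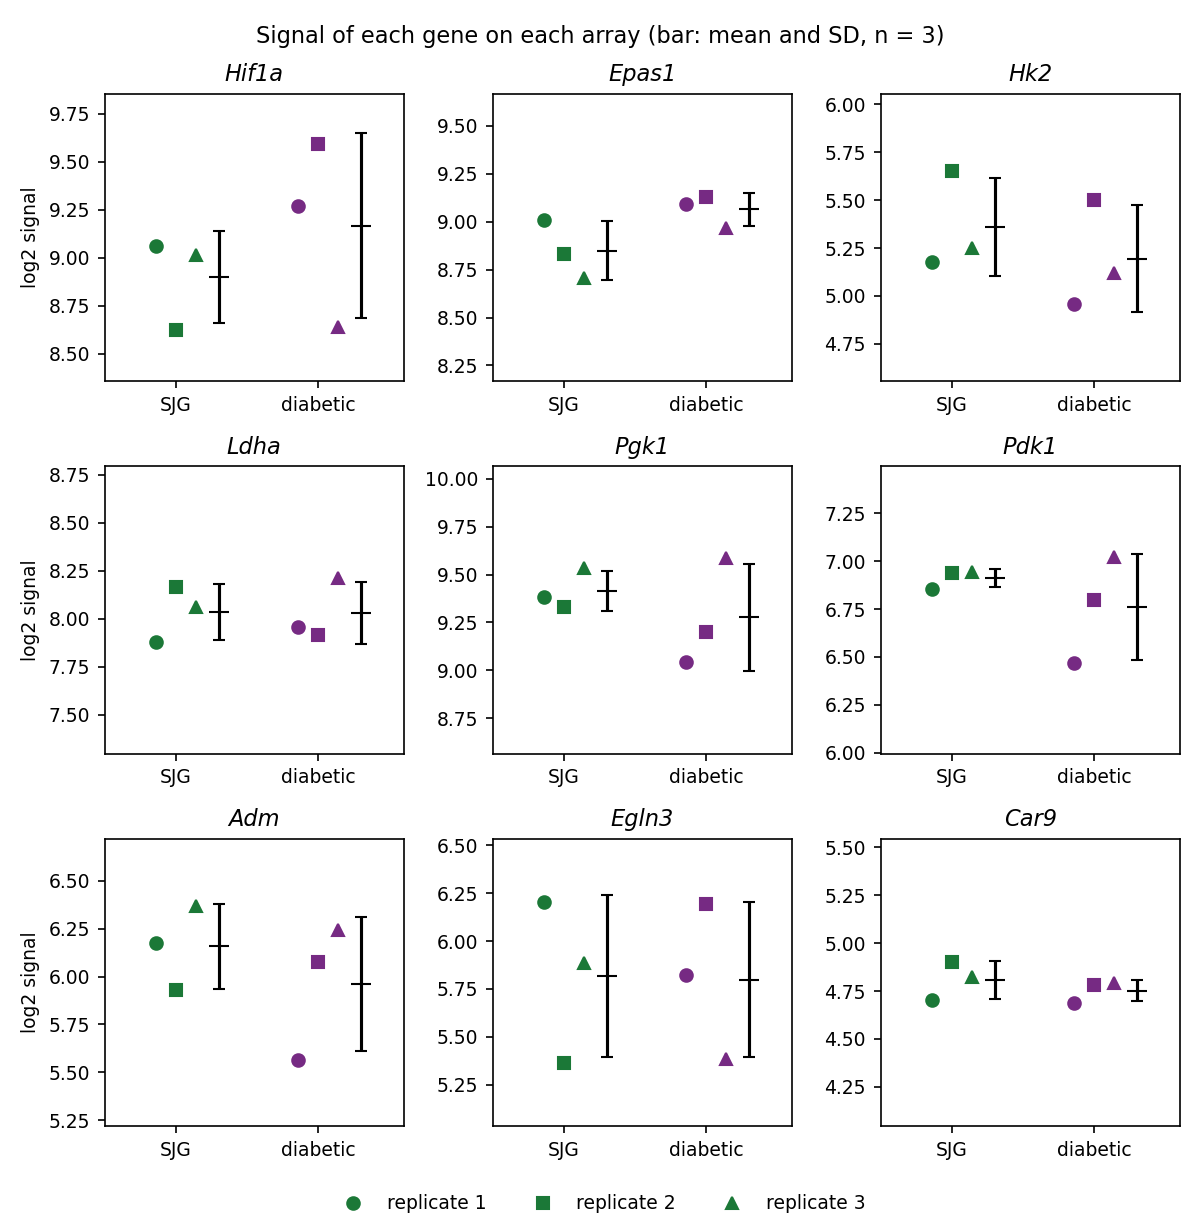
Log2 signal of each of the 9 genes on each array, SJG on the left and diabetic on the right of each panel, with a point per array shaped by replicate number and a bar for the mean and SD (n = 3); all panels span the same number of log2 units. The groups overlap in all 9 panels, and the points of Hif1a spread over 0.97 log2 units, those of Car9 over 0.21.

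Egln3 encodes the prolyl hydroxylase PHD3, itself a HIF target that feeds back on the factors. On the log2 scale it measured 6.20, 5.36 and 5.89 in SJG replicates 1, 2 and 3, and 5.82, 6.19 and 5.38 in diabetic replicates 1, 2 and 3. Each group held a high, a middle and a low array at nearly the same levels. The means of 5.82 ± 0.42 with SJG and 5.80 ± 0.40 in diabetic kidneys (SD, n = 3 each) differed by 0.02 (SE 0.26), with a 95% interval from -0.55 to 0.59. The spread between arrays of one group was thus larger than the difference between the groups. Leaving out single arrays moved the log2 fold change of Egln3 between -0.19 and 0.25.

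The promoters of these genes were searched for the short sequence that HIF binds. This core of 5 bases, ACGTG or GCGTG, was looked for on both strands from 250 bases before to 50 bases after the annotated start of each gene (RefSeq, rat build GRCr8). The start used for Hif1a, Epas1 and Adm is not the outermost annotated one. Of the 10 genes, 9 had such a promoter sequence and 5 of them held the core, which is 55.6%, against 41.6% of all 33469 promoters and 51.8% of the genes tested that have one, so the share is close to that of other genes. Ldha held 5 cores and Pdk1 held 4, where 5.96% of all promoters held 3 or more. The share with 3 or more among the genes tested was not counted. Bnip3 held 3 cores, Hif1a 2 and Car9 1, and Hk2, Adm, Egln3 and Epas1 held none in this window. The core is common, so a match is a description and not a site of binding. The promoters of Ldha and Pdk1 are printed because they hold the most cores, that of Car9 because its core lies at the start itself, and that of Angptl4 because it is the gene of the wider pathway that fell the most. Capitals mark the cores on either strand, with overlapping matches joined, so that CACGTG, which is also the E-box that other factors bind, counts as 1.
Ldha, chr1:106507842-106508141, plus strand: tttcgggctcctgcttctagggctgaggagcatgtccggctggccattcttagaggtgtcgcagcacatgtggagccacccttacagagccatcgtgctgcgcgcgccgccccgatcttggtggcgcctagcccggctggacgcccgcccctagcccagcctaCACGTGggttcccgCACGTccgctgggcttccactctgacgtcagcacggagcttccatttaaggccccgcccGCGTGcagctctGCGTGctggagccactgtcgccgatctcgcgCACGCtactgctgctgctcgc
Pdk1, chr3:77113264-77113563, plus strand: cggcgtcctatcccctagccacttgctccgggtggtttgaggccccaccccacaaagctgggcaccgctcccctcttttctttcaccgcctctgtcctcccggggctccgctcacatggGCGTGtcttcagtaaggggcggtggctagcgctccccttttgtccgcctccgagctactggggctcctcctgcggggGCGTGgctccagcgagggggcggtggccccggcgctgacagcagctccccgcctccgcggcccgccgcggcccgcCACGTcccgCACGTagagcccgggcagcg
Car9, chr5:62558774-62559073, plus strand: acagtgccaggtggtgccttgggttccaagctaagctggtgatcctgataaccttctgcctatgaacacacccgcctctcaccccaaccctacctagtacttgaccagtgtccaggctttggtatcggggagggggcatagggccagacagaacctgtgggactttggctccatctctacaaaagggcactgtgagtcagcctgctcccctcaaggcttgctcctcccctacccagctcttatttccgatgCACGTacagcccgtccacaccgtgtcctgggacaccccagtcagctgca
Angptl4, chr7:15258632-15258931, minus strand: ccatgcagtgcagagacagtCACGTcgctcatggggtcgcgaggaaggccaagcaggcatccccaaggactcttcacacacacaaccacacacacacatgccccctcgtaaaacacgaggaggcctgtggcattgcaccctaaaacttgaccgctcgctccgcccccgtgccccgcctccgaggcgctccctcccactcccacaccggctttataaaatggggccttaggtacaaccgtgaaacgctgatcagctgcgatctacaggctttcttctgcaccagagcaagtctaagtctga
In Ldha the first 2 cores begin 87 and 73 bases before the start, and in Car9 the core begins at base 2 of the transcript. Among the measured genes with a promoter sequence, the 4 with a core had a median log2 fold change of 0.03 and the 4 without one of 0.09.

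Of the genes of glucose breakdown, neither Hk2 nor Pgk1 passed. Hk2 encodes hexokinase 2, which traps glucose in the cell as its phosphate. Signals of Hk2 were 5.18, 5.65 and 5.25 in SJG replicates 1, 2 and 3, and 4.96, 5.50 and 5.12 in diabetic replicates 1, 2 and 3. Replicate 2 was the highest array in both groups. The means of 5.36 ± 0.26 with SJG and 5.19 ± 0.28 in diabetic kidneys (SD, n = 3 each) gave a log2 fold change of 0.17 (SE 0.21, limma adjusted p = 0.888). Leaving out single arrays moved it between 0.02, without SJG replicate 2, and 0.32, without diabetic replicate 2. Pgk1 encodes phosphoglycerate kinase, which makes ATP in the later steps of glycolysis. Pgk1 measured 9.38, 9.33 and 9.53 in SJG replicates 1, 2 and 3, and 9.05, 9.20 and 9.58 in diabetic replicates 1, 2 and 3. All SJG arrays lay inside the diabetic range. The log2 fold change was 0.14 (SE 0.19), with a 95% interval from -0.28 to 0.55.

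Ldha and Pdk1 steer pyruvate away from mitochondria. Ldha encodes the lactate dehydrogenase subunit that turns pyruvate into lactate. Signals of Ldha were 7.88, 8.17 and 8.06 in SJG replicates 1, 2 and 3, and 7.95, 7.91 and 8.21 in diabetic replicates 1, 2 and 3. The means of 8.03 ± 0.15 with SJG and 8.03 ± 0.16 in diabetic kidneys (SD, n = 3 each) differed by 0.01 (SE 0.17, limma adjusted p = 0.994). Its 95% interval, from -0.38 to 0.39, reaches at most 1.31-fold in either direction. Pdk1 encodes a kinase that shuts off pyruvate dehydrogenase. Pdk1 measured 6.86, 6.94 and 6.94 in SJG replicates 1, 2 and 3, and 6.47, 6.80 and 7.02 in diabetic replicates 1, 2 and 3. The SJG arrays lay within 0.09 of each other, inside a diabetic range of 0.55. The log2 fold change of Pdk1 was 0.15 (SE 0.19), with a 95% interval from -0.26 to 0.56.

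Adm and Car9 act outside the cell. Adm encodes adrenomedullin, a peptide that widens vessels and promotes sodium excretion. Signals of Adm were 6.17, 5.93 and 6.37 in SJG replicates 1, 2 and 3, and 5.57, 6.08 and 6.24 in diabetic replicates 1, 2 and 3. Diabetic replicate 1 lay below all other arrays. The means of 6.16 ± 0.22 with SJG and 5.96 ± 0.35 in diabetic kidneys (SD, n = 3 each) gave a log2 fold change of 0.20 (SE 0.21, limma adjusted p = 0.868). Car9 encodes carbonic anhydrase 9, a membrane enzyme that acidifies the space around hypoxic cells. Car9 measured 4.70, 4.90 and 4.82 in SJG replicates 1, 2 and 3, and 4.69, 4.78 and 4.79 in diabetic replicates 1, 2 and 3. The 6 arrays spanned 0.21, the smallest range of the 9 genes. The log2 fold change was 0.06 (SE 0.16). The arrays carry no detection call, so it is not known whether the Car9 signal lies above background.

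The intervals set how much change these arrays could have missed. For Ldha, Pgk1, Pdk1 and Car9 the whole 95% interval from limma stayed under 1.5-fold in either direction. The upper ends of Pgk1 and Pdk1, at 0.55 and 0.56, lay close to that threshold of 0.585. With the spread of each gene on its own, as in the unmoderated test, the intervals of these 2 genes reach it. Their log2 fold changes rose to 0.33 and 0.28 under the alternatives, so a change of 1.5-fold is not excluded for them. For Car9 the limit holds for the signal only. That signal may not lie above background, so its narrow interval does not limit the change in Car9 RNA. For Hif1a, Epas1, Hk2, Adm and Egln3 the interval reached 1.5-fold, so that these arrays do not settle whether a change of that size took place. Hif1a had the interval that reached farthest.

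**Figure D2:**
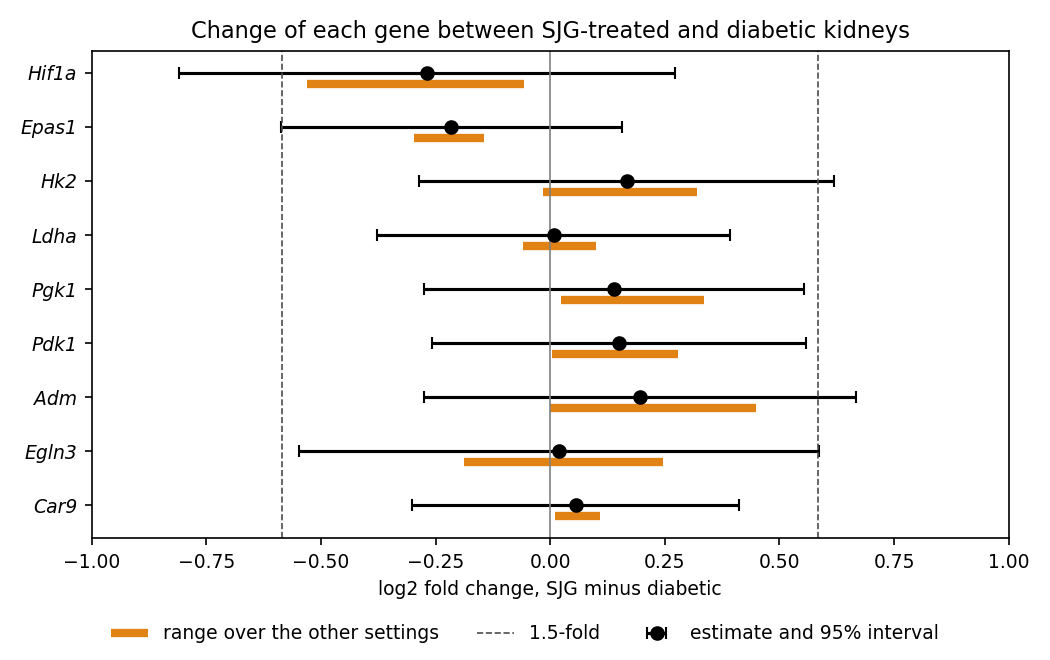
Log2 fold change of each gene, SJG minus diabetic (horizontal axis), as a point with its 95% interval from limma, above an orange bar for the range over the alternative settings; dashed lines mark 1.5-fold. No point or orange bar reaches a dashed line, and the intervals of Hif1a, Epas1, Hk2, Adm and Egln3 do.

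The order of the arrays was not the same in all genes. Diabetic replicate 1 was the lowest of the 6 arrays in 5 of the 9 genes, Hk2, Pgk1, Pdk1, Adm and Car9, and the highest in none. Diabetic replicate 3 was the highest in Ldha, Pgk1 and Pdk1. Without diabetic replicate 1, the log2 fold changes were 0.02 for Pgk1, 0.0038 for Pdk1 and -0.00098 for Adm, so that the positive values of these genes rest on that array. Hif1a and Egln3 followed another order, with their lowest signals on SJG replicate 2 and diabetic replicate 3. Without both of these arrays the log2 fold changes were -0.39 for Hif1a and 0.04 for Egln3, and 0 of the 9 genes were called.

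The likeness of the profiles was measured as the root-mean-square gap over the 6 arrays after each gene was centred on its own mean. Of the 36 pairs of genes, Pgk1 and Pdk1 had the smallest gap at 0.08, and Hif1a and Pgk1 had the largest at 0.48. Hif1a and Egln3 had a gap of 0.19, and the factor genes Hif1a and Epas1 one of 0.28. All genes share the same 6 arrays, so a small gap is a description and not a sign of shared control. Among 16509 other genes, those closest to Hif1a were Septin6, a cytoskeletal GTPase gene, at 0.04 and Sgpl1, which encodes the lyase of sphingosine-1-phosphate, at 0.05. The closest to Egln3 were Cxh3orf38 at 0.05 and Pop4, a gene of the RNase P complex, at 0.05. Closest to Adm were Immp1l, which encodes a protease of the inner mitochondrial membrane, at 0.04 and Hspd1, which encodes the mitochondrial chaperone Hsp60, at 0.05. These 6 genes had log2 fold changes between -0.30 and 0.18, and none was called.

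**Figure D3:**
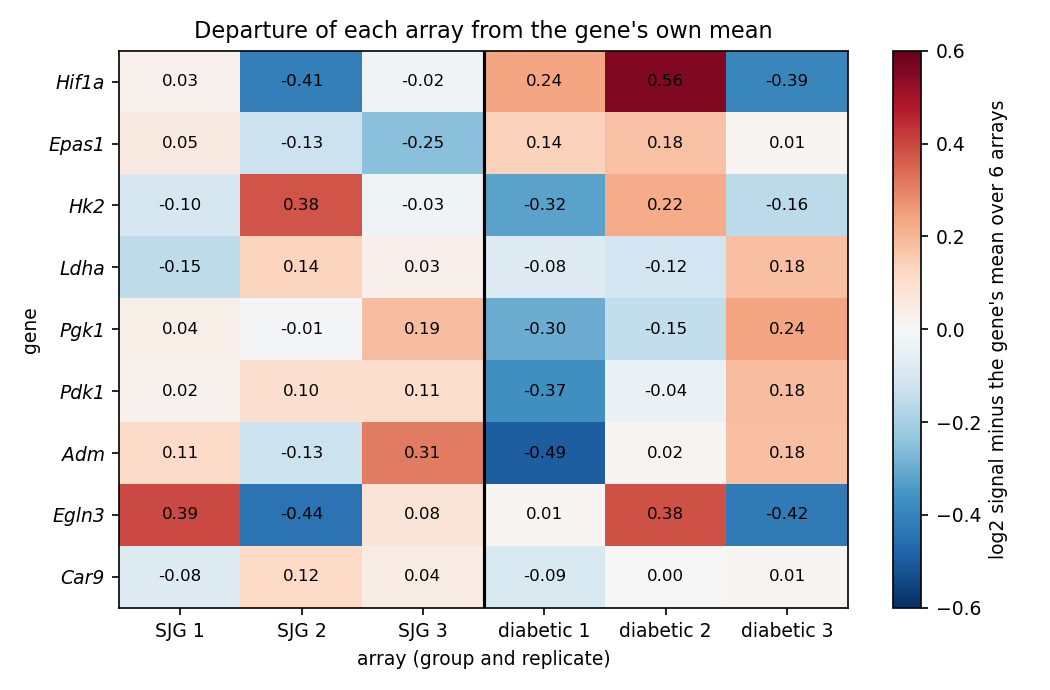
Log2 signal of each gene (rows) on each array (columns, SJG left and diabetic right of the line) minus the mean of the gene over the 6 arrays, with the value in each cell and in colour. Diabetic replicate 1 is at -0.30 for Pgk1, -0.37 for Pdk1 and -0.49 for Adm, and on SJG replicate 2 and diabetic replicate 3 Hif1a is at -0.41 and -0.39 and Egln3 at -0.44 and -0.42.

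Around these genes, 100 others of oxygen sensing and its known targets were listed, and 86 had a row of their own. These lists too were drawn up with earlier results of these data known. Of the 86 genes, 2 were lower with SJG, 0 were higher and 84 did not pass, which is 2.33% called, beside 3.11% of all genes. At an unadjusted p under 0.05 there were 5 (5.81%, against 6.24% of all genes), and groups did not overlap in 9 (10.5%, against 10.5%). Their median log2 fold change was -0.07. Both calls were in the list of vessel, red cell and iron genes, where 2 of 14 measured genes were lower.

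Angptl4 and Hmox1 were the genes that fell. Angptl4 encodes a secreted inhibitor of lipoprotein lipase, which fasting and fatty acids induce as well as hypoxia. Its log2 signals were 6.69, 5.89 and 6.84 in SJG replicates 1, 2 and 3, and 8.37, 7.93 and 7.11 in diabetic replicates 1, 2 and 3. All SJG arrays lay below all diabetic arrays, with diabetic replicate 3 the closest to them. The log2 fold change was -1.33 (SE 0.32), which is 2.51-fold lower (limma adjusted p = 0.711). Hmox1 encodes haem oxygenase 1, which breaks down haem and is also induced by oxidative stress and haem itself. Its log2 signals were 5.07, 4.87 and 5.11 in SJG replicates 1, 2 and 3, and 5.84, 6.17 and 5.87 in diabetic replicates 1, 2 and 3. The groups were separate, and each spanned less than the gap between them. The log2 fold change was -0.94 (SE 0.18, limma adjusted p = 0.606). The study itself named Hmox1 from these samples, so its decrease is not independent evidence. The paper also counts HIF-1 signalling among the pathways enriched in its differing genes, and enrichment was not tested here. Its introduction cites earlier work for the view that SJG may act by inducing HIF-1alpha and HO-1, the protein of Hmox1. That passage follows results in diabetic patients. On these arrays, which measure RNA of rat kidneys and no protein, Hif1a did not pass and Hmox1 was lower with SJG. The cited view was not tested.

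Markers of other cells moved in the same arrays. All 6 macrophage markers measured were called lower with SJG, beside 2.12% of all genes, but the groups did not overlap in only 2 of the 6. The macrophage markers had mean signals of 5.90 to 6.26 on the SJG arrays and of 6.28 to 7.45 on the diabetic arrays. Diabetic replicate 3 had the lowest diabetic value. Of 6 tubule injury markers, 4 were lower. The red cell markers ran the other way, with 3 of 3 measured higher and mean signals of 6.78 to 7.68 with SJG and of 5.33 to 6.49 in diabetic kidneys. Of 8 immediate early genes measured, 4 were lower with SJG and all 8 had negative differences, with a median of -0.94. Their mean signals were 6.61 to 7.15 with SJG, against 7.67, 9.13 and 6.97 in diabetic replicates 1, 2 and 3, so that diabetic replicate 2 stood above the others. Of 5 adipocyte markers 1, Adipoq, was higher, at 0.68 (SE 0.27). The mean of the adipocyte markers was 6.08, 7.20 and 5.94 in SJG replicates 1, 2 and 3 and 5.64 to 5.85 in diabetic kidneys, so that SJG replicate 2 stood apart. Without SJG replicate 2 Adipoq was at 0.32 and did not pass, nor did it pass without diabetic replicate 1 or 3 or by the unmoderated test. Of the 6 macrophage markers, the unmoderated test called Itgam alone. It also did not call the red cell markers Hba-a1 and Hbb-b1, the immediate early genes Atf3 and Jun or the injury marker Havcr1. Nor did Hbb-b1 pass without SJG replicate 2 or without diabetic replicate 1. Of 5 inner medulla and osmolyte genes 1 was lower, and 0 were called among 7 proximal tubule, 5 thick limb and distal tubule, 6 collecting duct, 2 podocyte and 4 skeletal muscle markers measured. Macrophages are known to express Hmox1 and adipocytes Angptl4, and the part of these cells in the results was not tested.

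Other members of the vessel, red cell and iron list came close to the thresholds. Vegfa, Tfrc and, among the related isoenzymes, Pdk4 had an unadjusted p under 0.05 without reaching 1.5-fold, and Vegfa and Tfrc were picked after their values were seen. Vegfa, the vessel growth factor, had log2 signals of 8.55, 8.44 and 8.05 in SJG replicates 1, 2 and 3, and of 8.94, 8.79 and 8.82 in diabetic replicates 1, 2 and 3. All SJG arrays lay below the diabetic arrays, at a log2 fold change of -0.51 (SE 0.18), or 1.42-fold (limma adjusted p = 0.758). Tfrc, the transferrin receptor that takes up iron, had a log2 fold change of 0.50 (SE 0.21), and its groups overlapped in diabetic replicate 3. Pdk4, a pyruvate dehydrogenase kinase known from fasting and fatty acid use, had log2 signals of 8.83, 8.06 and 7.98 in SJG replicates 1, 2 and 3, and of 8.86, 8.95 and 8.76 in diabetic replicates 1, 2 and 3. SJG replicate 1 lay within the diabetic range, and the other SJG arrays lay below it. Its log2 fold change was -0.57 (SE 0.23), while that of Pdk1 was 0.15. Without SJG replicate 1, Vegfa at -0.61 and Pdk4 at -0.84 passed both thresholds, and without diabetic replicate 3 Tfrc at 0.70 and Pdk4 at -0.62 did.

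In the remaining lists 0 genes were called by limma. Of 13 measured genes of oxygen sensing, which share the control of HIF stability and activity, 6 had a negative and 7 a positive difference, with a median of 0.05. The largest differences by p were those of Cited2, which encodes an inhibitor of HIF that competes for its co-activators, at -0.46 (SE 0.25), and of the co-activator gene Crebbp at -0.42 (SE 0.23). Of 10 measured genes of glucose uptake and glycolysis the median was -0.06, and 6 of the 16 listed had no row of their own, 4 of them because they share one with another gene. Pfkfb4, which encodes an enzyme that sets the glycolytic activator fructose 2,6-bisphosphate, had 0.43 (SE 0.23) and the phosphofructokinase gene Pfkp had -0.25 (SE 0.21).

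Among 8 genes of mitochondrial adjustment, the median was 0.18. Higd1a, which encodes a hypoxia-induced protein of the respiratory chain, had 0.45 (SE 0.22), and Bnip3l, the relative of Bnip3 that also drives mitophagy, had -0.37 (SE 0.21). The 5 genes listed around the adrenomedullin receptors had a median of 0.08, where 2 had a negative and 3 a positive difference. The 2 negative ones had the smallest p. The receptor gene Calcrl was at -0.24 (SE 0.20), and Ramp1, which encodes an accessory protein, was at -0.47 (SE 0.26). Of 14 other carbonic anhydrases, 7 had a negative and 7 a positive difference. Car13 was at -0.46 (SE 0.24) and Car4, the enzyme of the proximal tubule brush border, at -0.40 (SE 0.22). Of 15 genes of hypoxic stress and matrix, 11 had a negative difference, with a median of -0.22. Ndrg1, a stress-response gene that hypoxia induces, had -0.43 (SE 0.21) with groups that did not overlap, and Ero1a, which encodes an oxidase for protein folding, had -0.32 (SE 0.19). Of 7 related isoenzymes the median was 0.12, and beside Pdk4 the smallest p was that of Adm2, the adrenomedullin relative, at 0.31 (SE 0.19).

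**Figure D4:**
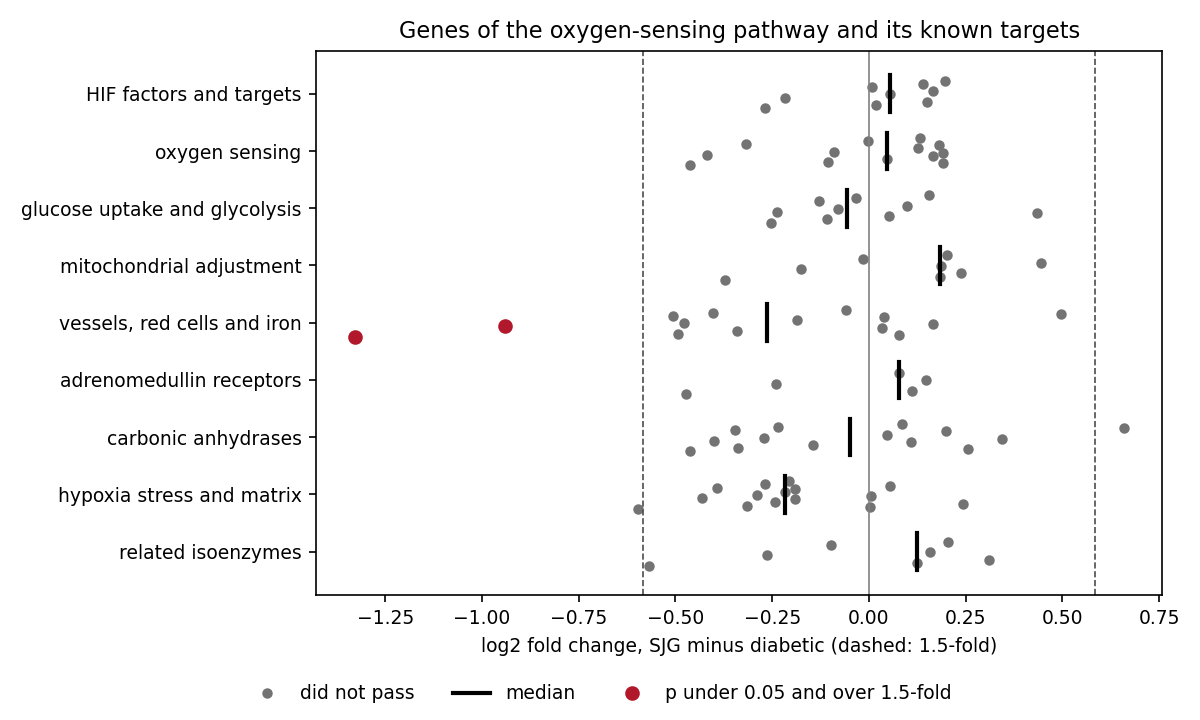
Log2 fold change of each gene, SJG minus diabetic (horizontal axis), by list (rows), with a point per gene, red where it was called, a black bar for the median and dashed lines at 1.5-fold. The red points are Angptl4 at -1.33 and Hmox1 at -0.94, and the 9 HIF factors and targets in the top row lie between -0.27 and 0.20.

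The counts depended on which arrays entered, among all genes as well as in these lists. Without diabetic replicate 3, 12 of the 86 genes (14%) were called, 10 lower and 2 higher, with Pfkfb4 and Tfrc the higher ones, where 7.98% of all genes were called. Angptl4 then had a limma adjusted p = 0.0168 and Hmox1 a limma adjusted p = 0.0466, where under the other alternatives these values reached 0.9995. The count was 6 without SJG replicate 1 (6.98%, against 5.41% of all genes), 5 without SJG replicate 3 (5.81%, against 3.37%) and 5 without diabetic replicate 1 (5.81%, against 3.06%). Under each of these settings 0 of the 9 HIF factors and targets were called. The core was found in the promoters of 51 of 66 genes of these lists with a promoter sequence (77.3%, against 51.8% of the genes tested). Their median log2 fold change was -0.10 with a core and 0.08 for the 15 genes without one, where all genes tested had medians of -0.02 with a core and 0.01 without.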

How the data were processed

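RNA of 3 SJG-treated and 3 diabetic rat kidneys was hybridized to Affymetrix Rat Gene 2.0 ST arrays. The authors deposited 1 log2 signal per transcript cluster and array. That the base is 2 follows from the values alone, which end at 13.7. Software, background correction and normalization were not given in the sources used here. No further normalization was applied. Of 36685 rows, 18511 carried 1 gene symbol, updated by gene number against GRCr8 for 18394 of them, 575 carried several and 17599 none. For 291 genes with several rows the brightest was used. No filter on low signals was applied, so dim genes may lie at background, and the number of arrays limits the precision.

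The groups were compared with limma 3.58.1 (lmFit and eBayes, prior degrees of freedom 6.94) in R 4.3.3, over 18166 genes, without a block, with Benjamini-Hochberg adjustment. The code was tested on simulated data. Named genes were the HIF factors and targets, up to 4 called genes of each pathway list (the 2 with the largest change in each direction) or, where fewer than 2 were called, the 2 with the smallest p, up to 2 called genes of each marker list, and the 2 genes closest in profile to the 3 members with the widest range. The members and the 8 pathway lists and marker lists were chosen with earlier results of these data known. A two-sided exact permutation test of 3 against 3 arrays cannot go below 0.1 and was not used. Alternatives were eBayes with trend and robust variance, the unmoderated test, quantile normalization, median centring, genes above the median signal, the mean of a gene's rows, the replicate number as a block and leaving out each array. Leaving out SJG replicate 2 and diabetic replicate 3 together was chosen after seeing the data.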

Additional observations from a re-analysis of the deposited data

How the results depend on the processing

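The count of HIF factors and targets called was 0 under each of the 14 alternatives, with 7 instead of 9 genes tested among those above the median signal. Of their single values, 115 kept direction and 9 reversed, in Hk2, Ldha, Adm and Egln3. Leaving out arrays, singly or as SJG replicate 2 with diabetic replicate 3, gave -0.015 to 0.32 for Hk2, -0.058 to 0.10 for Ldha, -0.00098 to 0.45 for Adm and -0.19 to 0.25 for Egln3, and among the genes alike in profile -0.25 to 0.20 for Cxh3orf38, -0.25 to 0.16 for Pop4 and -0.0076 to 0.38 for Immp1l. Cxh3orf38 had 0.011 with quantile normalization and 0.024 with median centring, and Pop4 had 0.017 and 0.0063. The unmoderated test called 153 genes (76 higher, 77 lower), and 326 were called above the median signal, where fewer genes were tested. Leaving out single arrays gave 403 to 1449 genes, the highest without diabetic replicate 3 and 982 without SJG replicate 1. Pathway calls then ranged from 3 to 12 of 86, and above the median signal 1 was made, since Hmox1 was not tested there. Without SJG replicate 2 and diabetic replicate 3 together 1254 genes and 5 pathway genes were called. Centring arrays on their medians split the calls into 264 higher and 319 lower, against 180 and 385. With the replicate number as a block, 634 genes, 0 HIF factors and targets and 2 pathway genes were called. Arrays of the same number did not deviate together (correlations of -0.024, -0.29 and -0.0013), so the numbers were not taken as pairs. Other causes of these differences were not tested.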
